A study of Mus musculus with 9 samples.

Results

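The comparison of sham-operated females (D21-s) with sham-operated males (M) covers the cells that the labels call kidney proximal tubule in C57BL/6 mice. Its members are the genes that reached 1 FPKM in 3 or more of the 6 libraries of these groups, 12918 of the 52405 entries of the deposited table. The D21-s animals are females sham-operated at postnatal day 21, with 3 libraries. The M animals are sham-operated males, adult in the series design text, with 3 libraries. For these males the labels name no day of surgery, and they name no age at collection for either group, so a difference in timing cannot be told apart from sex. Females ovariectomized at postnatal day 21, with 3 libraries, entered the fit only to share its estimate of the spread. All groups had surgery, and the labels name no transgene or mutant allele. The labels call the libraries biological replicates but do not say whether animals were pooled, so the p-values measure only the spread between these libraries, which may be technical in part.

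The proximal tubule is the nephron segment that reclaims most filtered glucose, amino acids, phosphate and protein, and that secretes organic anions and drugs. It carries out gluconeogenesis, oxidizes fatty acids in mitochondria and peroxisomes, and conjugates foreign compounds. In mice it is known as one of the more sex-dimorphic tissues outside the gonads and the liver, with androgens and growth hormone among the signals described for it. Cortex was dissociated, and the cells that bound an antibody against prominin-1, a membrane protein of apical protrusions, were retained on a magnetic column. Messenger RNA levels are given as FPKM, the fragments mapped to a gene for each kilobase of its transcript and each 1e6 fragments mapped in all.

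The 6 libraries had estimated depths of 22.75 to 28.25 M (1e6) reads in D21-s and 21.75 to 25 M in M, and 12287 to 12742 genes in D21-s and 12815 to 13115 in M reached 1 FPKM. Mitochondrially encoded genes made up 26.2% to 26.6% of FPKM in D21-s and 24.6% to 27.3% in M. Markers of the proximal tubule were high in all 6 libraries. The phosphate transporter gene Slc34a1 had 2883, 3255 and 3455 FPKM in D21-s and 3250.2, 2549 and 2552 FPKM in M, overlapping ranges (log2 fold change 0.21, adjusted p = 0.257). Markers of other kidney cell types were also present. Over the 67 such markers the summed FPKM was 3088, 2152 and 1760.3 in D21-s, against 3312, 4956 and 4354 in M, so each D21-s library lay below each M library. In such bulk samples fewer cells of a type and less RNA per cell cannot be told apart.

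Sham females differed from sham males at 1219 of the tested genes, with the widest differences in Ugt1a2, a glucuronosyltransferase gene that was higher, and Cyp2j13, a P450 gene that was lower. Of the 12918 genes, 566 were higher in D21-s (4.38%) and 653 lower (5.05%), together 9.44%, in limma's test on log2(FPKM + 1) with Benjamini-Hochberg adjustment at an adjusted p under 0.05. Many of these differences were small: 252 of the higher and 245 of the lower genes differed by under 1.5-fold on this scale, which shrinks the differences of genes near 0. By 2-fold or more, 136 genes were higher and 121 lower, and by 8-fold or more 14 and 13. Libraries of the groups did not overlap for 3932 genes (30.4%), 1240 of them higher and 2692 lower in D21-s, and the median log2 fold change of all tested genes was -0.09. All 566 called higher genes and 652 of the 653 called lower genes were among them. The lack of overlap given below for called genes thus adds no support to a call. At an unadjusted p under 0.05 there were 3470 genes.

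Called genes of both directions were more frequent at high expression, and more so those that were higher in D21-s. Among 1199 genes with a mean of 50 to 200 FPKM, 12.3% were higher and 6.01% lower, whereas among 5013 genes at 2 to 10 FPKM 2.19% were higher and 4.83% lower. Shares were taken of the summed FPKM of tested genes not placed on the mitochondrial chromosome. Abundant unprocessed pseudogenes of chromosome 1 stay in this sum, such as Gm10925, with means of 33380 FPKM in D21-s and 31090 in M. The called higher genes made up 13% to 13.5% of it in D21-s, against 7.96% to 8.53% in M. The called lower genes made up 4.17% to 4.88% in D21-s, against 8.4% to 9.75% in M. Kap, which encodes kidney androgen-regulated protein, by itself made up 0.233% to 0.417% in D21-s, against 1.25% to 2.08% in M. The counts moved with the libraries used. Without M replicate 1, 665 genes were higher and 999 lower, and without D21-s replicate 1, 465 and 778. Without M replicate 2 the counts were 389 and 269, without M replicate 3 they were 373 and 275, without D21-s replicate 2 they were 351 and 232, and without D21-s replicate 3 they were 402 and 343. Each of these fits has fewer libraries. Median-ratio scaling gave 851 higher and 487 lower genes, so the share of calls that were higher was 63.6% in place of 46.4%, and quantile normalization gave 707 and 491 (59%).

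**Figure D1:**
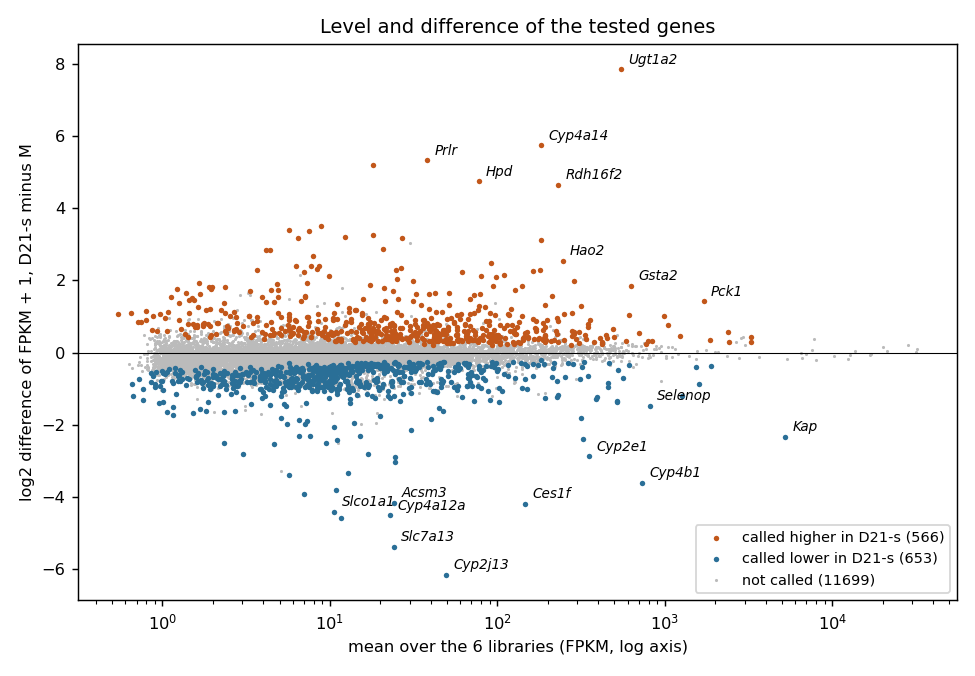
Log2 fold change (D21-s minus M, on log2(FPKM + 1)) of each of the 12918 tested genes against its mean FPKM over the 6 libraries, on a log axis, with the 566 genes called higher and the 653 called lower in colour and genes with the widest differences named. Ugt1a2 at 7.85 and Cyp2j13 at -6.15 lie farthest from 0, and most called genes, with medians of 0.62 (higher) and -0.70 (lower), lie much nearer to it.

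The widest rise in D21-s was that of Ugt1a2 (ENSMUSG00000090171, chromosome 1, 88200601 to 88218997, build GRCm38), which encodes a glucuronosyltransferase that joins glucuronic acid to drugs and other small molecules. It had 1063, 1161 and 1028 FPKM in the D21-s libraries, against 2.96, 4.79 and 3.56 FPKM in the M libraries. All 3 D21-s libraries stood at 1028 FPKM or more and no M library reached 5, a difference far beyond the spread within either group (log2 fold change 7.85, SE 0.124, adjusted p = 1.34e-09). Cyp4a14, which encodes a fatty acid omega-hydroxylase, had 330.3, 370.4 and 369 FPKM in D21-s, against 1.32, 8.08 and 12.9 FPKM in M. The D21-s libraries were close to each other, and the M libraries, all far lower, spread widely around their mean (log2 fold change 5.75, SE 0.524, adjusted p = 0.000183). Prlr, the gene of the prolactin receptor, had 82, 74.1 and 70.5 FPKM in D21-s, against 0.92, 0.66 and 1.17 FPKM in M (log2 fold change 5.33, adjusted p = 4.12e-08). It stood at 1.17 FPKM or less in every M library, low but above 0, and at 70.5 FPKM or more in every D21-s library.

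Hpd, which encodes 4-hydroxyphenylpyruvate dioxygenase of tyrosine breakdown, had 163, 169.5 and 117 FPKM in D21-s, against 5.55, 4.46 and 3.72 FPKM in M (log2 fold change 4.75, adjusted p = 1.42e-07). Rdh16f2, a gene of the retinol and sterol dehydrogenase group, had 436, 453 and 439 FPKM in D21-s, against 6.46, 32.9 and 20.9 FPKM in M (log2 fold change 4.65, adjusted p = 0.000211). In both cases the lowest D21-s library was above the highest M library by more than 10 times, and the Hpd values were tighter within M than those of Rdh16f2. Hao2, the gene of a peroxisomal oxidase of 2-hydroxy acids, had 432, 389 and 441 FPKM in D21-s, against 67.8, 75.2 and 70.4 FPKM in M (log2 fold change 2.55, adjusted p = 1.23e-07). Its mean was 5.91 times as high in D21-s, and both groups varied little. Pck1, which encodes the gluconeogenic enzyme phosphoenolpyruvate carboxykinase, was among the most abundant genes that were higher, at 2663, 2579 and 2227 FPKM in D21-s, against 1018, 865 and 911 FPKM in M (log2 fold change 1.42, adjusted p = 4.62e-05). The D21-s libraries again lay wholly above the M libraries. Hdc, the gene of histidine decarboxylase, which makes histamine, varied more. It had 29.9, 5.99 and 34.3 FPKM in D21-s, against 1.12, 1.4 and 0.91 FPKM in M, so D21-s replicate 2 was far below the others of its group yet still above M (log2 fold change 3.21, adjusted p = 0.00518, and 0.126 with the score of other cell type markers as a covariate).

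The widest fall in D21-s was that of Cyp2j13 (ENSMUSG00000028571, chromosome 4, 96027534 to 96077546, build GRCm38), a member of the P450 subfamily that oxygenates arachidonic acid and related fatty acids. It had 0.45, 0.4 and 0.35 FPKM in D21-s, against 99.4, 106 and 90.7 FPKM in M (log2 fold change -6.15, SE 0.0976, adjusted p = 1.34e-09). Every D21-s library was below 0.5 FPKM and every M library near 100, with little spread. Slc7a13, which encodes an apical transporter of acidic amino acids and cystine, had 0.14, 0.27 and 0.1 FPKM in D21-s, against 50.9, 51 and 41.5 FPKM in M (log2 fold change -5.38, adjusted p = 3.18e-08). Slco1a1, the gene of an organic anion transporter that carries steroid conjugates, had 0.02, 0.01 and 0 FPKM in D21-s, against 29, 20.5 and 14.1 FPKM in M (log2 fold change -4.40, adjusted p = 2.95e-06). Both were below 0.5 FPKM in every D21-s library, and the M libraries of Slco1a1 spread more widely than those of Slc7a13.

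Cyp4b1, the gene of a P450 that oxidizes fatty acids and some protoxins, was the most abundant of the genes that fell by 8-fold or more, at 90.9, 136 and 106 FPKM in D21-s, against 1313, 1538 and 1185 FPKM in M (log2 fold change -3.60, adjusted p = 4.85e-06). Cyp2e1, the gene of the P450 that oxidizes ethanol and other small molecules, had 86.1, 108 and 60.8 FPKM in D21-s, against 529, 732 and 595 FPKM in M (log2 fold change -2.87, adjusted p = 2.42e-05). For both P450 genes all D21-s libraries were below all M libraries by several times. Acsm3, a mitochondrial acyl-CoA synthetase gene for medium-chain acids, had 1.41, 2.46 and 1.11 FPKM in D21-s, against 38.9, 62.8 and 38.7 FPKM in M (log2 fold change -4.16, adjusted p = 5.4e-06). Ugt8a, which encodes the ceramide galactosyltransferase, had 0.67, 0.57 and 0.5 FPKM in D21-s, against 19.1, 22.6 and 21.7 FPKM in M (log2 fold change -3.81, adjusted p = 1.3e-07). Both thus had no overlap between the groups. Pzp, a protease inhibitor gene, had 0.2, 0.08 and 0.18 FPKM in D21-s, against 12.9, 13.3 and 7.65 FPKM in M (log2 fold change -3.38, adjusted p = 9.75e-06). Kap had 2194, 1222 and 1811 FPKM in D21-s, against 6494, 11081 and 8583 FPKM in M (log2 fold change -2.33, adjusted p = 0.00209). The Kap libraries did not overlap but varied widely within each group, and the call was lost with the other cell type score as a covariate (adjusted p = 0.0983). Even at its lower level it was at 1222 FPKM or more in each D21-s library.

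**Figure D2:**
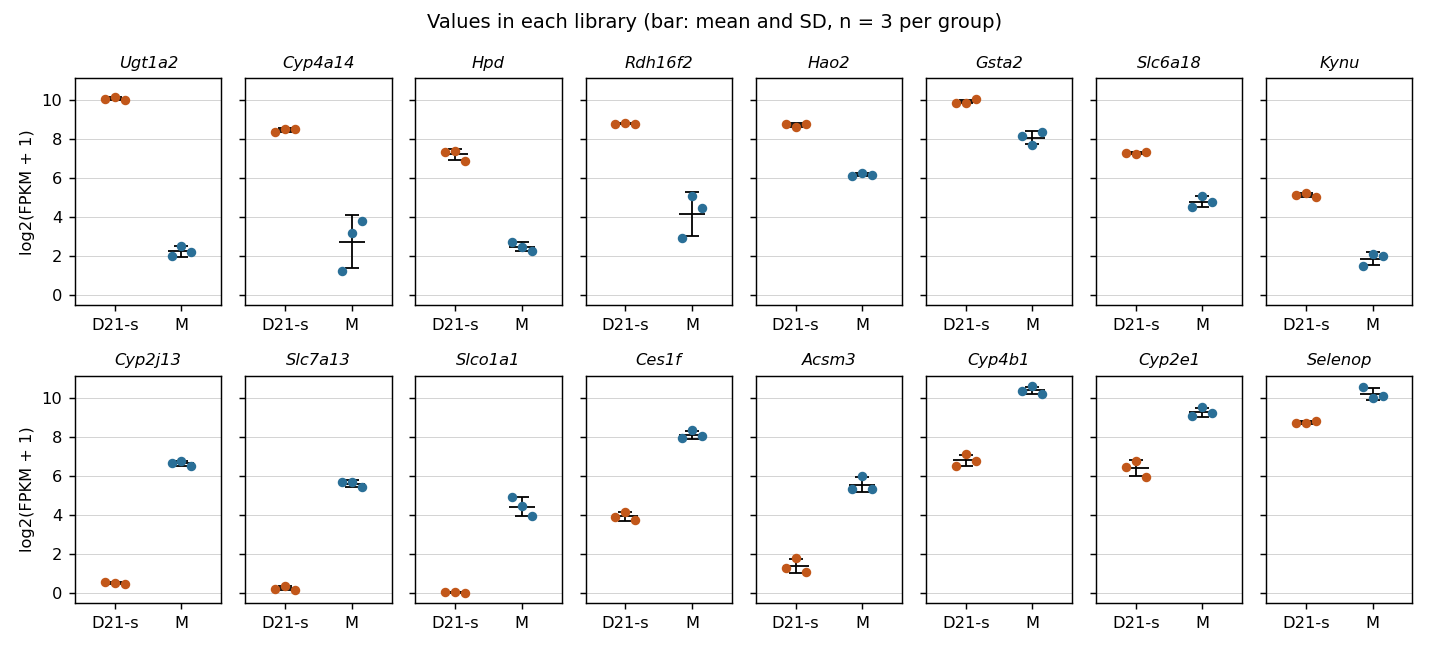
log2(FPKM + 1) in each of the 3 D21-s libraries (left in each panel) and each of the 3 M libraries, for genes that were higher (upper panels) and lower (lower panels) in D21-s, with bars for the mean and SD. The groups do not overlap for any gene shown, which holds for nearly every called gene.

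Sex chromosome genes served as a check of the labels, and all 6 libraries matched their labelled sex. Xist, the RNA that coats and silences an X chromosome, had 32.7, 36.6 and 39.6 FPKM in D21-s, against 0.04, 0 and 0.01 FPKM in M. Its levels were thus at or near 0 in all M libraries. Of 6 tested genes placed on the Y chromosome 5 were lower. Ddx3y, Eif2s3y, Kdm5d and Gm29650 were listed at 0 in every D21-s library, where M libraries had 14.8, 13.1 and 14 FPKM of the helicase gene Ddx3y and 24.5, 24.6 and 20.4 FPKM of the translation factor gene Eif2s3y. The exception, Gm47283, had 52.4, 57.7 and 58.9 FPKM in D21-s, against 37.5, 57.6 and 50.7 FPKM in M (adjusted p = 0.394). Among 6 X-linked genes listed as the inactivation RNA or as escaping inactivation, 4 were higher and none lower, with a median log2 fold change of 0.46. Besides Xist, the firmest was Eif2s3x, the X-linked partner of Eif2s3y, at 54.1, 52.7 and 56 FPKM in D21-s, against 33.9, 29.6 and 30.9 FPKM in M (log2 fold change 0.77, adjusted p = 0.000111). Across the X chromosome 24 of 395 tested genes were higher (6.08%) and 17 lower (4.3%), near the shares over all genes.

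Sequences around the start sites are shown for some of the genes with the widest differences that had an entry. Cyp4a14, Rdh16f2, Slc7a13, Cyp4a12a and Ces1f are named only. RefSeq (build GRCm38.p6) gave a window of 250 bases before to 50 after the start for 9600 of the 12918 tested genes. Both strands were read by looking for a motif and its reverse complement, and matches to these motifs are in capitals: AGAACA or TGTTCT, a half-site type bound by the glucocorticoid receptor and its relatives; AGGTCA or TGACCT, the half-site of many other nuclear receptors; and TTCNNNGAA, the STAT motif. No pair of capitalized matches overlapped in the windows shown. Where a gene had several windows, the window with the most matches to the motifs searched was chosen. Ugt1a2 (chr1:88200361-88200660, plus strand) and Prlr (chr15:10223656-10223955, plus strand, 1 of 3 start sites in the table) were higher in D21-s. Cyp2j13 (chr4:96077491-96077790, minus strand, 1 of 2 start sites) and Slco1a1 (chr6:141946913-141947212, minus strand) were lower.
Ugt1a2: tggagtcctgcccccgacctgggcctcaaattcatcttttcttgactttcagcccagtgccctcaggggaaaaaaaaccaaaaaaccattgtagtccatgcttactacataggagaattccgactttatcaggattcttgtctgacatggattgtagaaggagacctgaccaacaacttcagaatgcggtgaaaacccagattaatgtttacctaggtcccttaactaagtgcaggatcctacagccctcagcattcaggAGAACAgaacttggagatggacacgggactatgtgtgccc
Prlr: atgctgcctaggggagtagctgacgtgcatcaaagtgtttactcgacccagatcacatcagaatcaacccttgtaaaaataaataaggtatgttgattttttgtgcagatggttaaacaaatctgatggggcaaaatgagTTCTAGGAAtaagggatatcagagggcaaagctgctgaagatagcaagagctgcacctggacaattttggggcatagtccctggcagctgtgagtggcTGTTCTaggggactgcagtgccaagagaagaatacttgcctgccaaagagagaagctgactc
Cyp2j13: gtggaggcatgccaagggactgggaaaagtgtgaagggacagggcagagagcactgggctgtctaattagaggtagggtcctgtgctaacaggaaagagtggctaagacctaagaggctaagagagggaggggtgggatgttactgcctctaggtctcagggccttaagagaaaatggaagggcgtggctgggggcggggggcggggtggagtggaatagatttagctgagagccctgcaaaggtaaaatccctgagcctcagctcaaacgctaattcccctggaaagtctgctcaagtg
Slco1a1: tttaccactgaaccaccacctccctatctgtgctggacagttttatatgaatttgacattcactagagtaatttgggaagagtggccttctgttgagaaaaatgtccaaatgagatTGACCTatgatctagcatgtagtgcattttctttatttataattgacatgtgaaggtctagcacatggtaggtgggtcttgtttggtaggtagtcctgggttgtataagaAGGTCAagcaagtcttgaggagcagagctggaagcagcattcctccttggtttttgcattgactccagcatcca

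Read as letters, the Prlr window holds 1 STAT motif, TTCTAGGAA, whose first base lies at position -110 from the start site. This window was chosen for its matches, so they do not describe the other Prlr start sites. The Ugt1a2 window holds AGAACA at position 11, and the Prlr window TGTTCT at -12. The Cyp2j13 window holds none of these letters, and the Slco1a1 window holds 2 copies of the AGGTCA half-site type, at -134 and -24. The windows of Hpd and Acsm3, which also had an entry and are not shown, hold none of these letters. The AGAACA or TGTTCT letters were in 23.1% of 121 windows of genes higher by 2-fold or more and in 16.8% of 95 windows of genes lower by 2-fold or more, against 12.8% of 12325 windows of tested genes and 19% of all 32851 windows of the table. The AGGTCA or TGACCT letters were in 16.5% and 18.9%, against 12.8% over tested genes and 16.3% over the whole table. The STAT motif was in 11.6% and 4.21%, against 6.55% and 8.3%. No test was run on these shares, and some genes have several windows.

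Among neighbouring genes of one family, some were higher and others lower in D21-s. Runs of tested genes of the same symbol stem, with neighbours at most 500 kb apart, were searched for runs with at least 1 gene called in each direction. There were 10 such runs, with 56 tested genes, of which 22 were higher and 16 lower. The runs were selected by these calls, so the counts describe them and test nothing. Copies within a run are alike in sequence, and reads that fit several copies were divided among them by RSEM's estimate, so a level of one copy is less certain than that of a lone gene.

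The Cyp4 run on chromosome 4 (115299046 to 115647723) held 3 genes higher and 3 lower. Cyp4a10 had 313, 329 and 328 FPKM in D21-s, against 21.6, 45.4 and 49.2 FPKM in M (log2 fold change 3.11, adjusted p = 0.000104), and Cyp4a31 had 169.6, 239 and 179 FPKM in D21-s, against 48.4, 58.6 and 67.6 FPKM in M (log2 fold change 1.73, adjusted p = 0.000321). Like Cyp4a14, both encode fatty acid hydroxylases and lay wholly above M. Cyp4a12a, which makes the arachidonic acid product 20-HETE in male mouse kidney, had 1.02, 1.07 and 0.87 FPKM in D21-s, against 56.5, 34.2 and 43.5 FPKM in M (log2 fold change -4.50, adjusted p = 4.44e-05). Its near-identical copy Cyp4a12b had 1.44, 2.26 and 1.8 FPKM in D21-s, against 13.4, 9.74 and 17 FPKM in M (log2 fold change -2.32, adjusted p = 0.000442). Thus genes of the same enzyme subfamily, side by side, differed in opposite directions between the sexes, with no overlap in any of them. In the Cyp2j run, also on chromosome 4, Cyp2j11 had 112, 109.8 and 110.5 FPKM in D21-s, against 40.9, 50.5 and 42.2 FPKM in M (log2 fold change 1.30, adjusted p = 2.42e-05), the reverse of Cyp2j13. The most abundant copy, Cyp2j5, had 481, 518 and 547 FPKM in D21-s, against 505, 474 and 482 FPKM in M, with overlapping libraries (log2 fold change 0.08, 95% interval -0.11 to 0.27, adjusted p = 0.57). Its interval does not reach the difference of Cyp2j11 or of Cyp2j13.

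The Slc22 run on chromosome 19 (7673061 to 8628299) held 5 genes higher and 2 lower, all of the organic ion transporter family. Slc22a8, the basolateral organic anion transporter Oat3, had 364, 422 and 361 FPKM in D21-s, against 171, 186 and 172 FPKM in M (log2 fold change 1.11, adjusted p = 2.36e-05). Slc22a6, the gene of its partner Oat1, had 206, 244 and 225 FPKM in D21-s, against 149.7, 227 and 174 FPKM in M, with overlapping libraries (log2 fold change 0.31, adjusted p = 0.206). Slc22a19, the gene of an apical carrier of steroid sulfates, had 19.8, 13.6 and 18.3 FPKM in D21-s, against 0.42, 0.66 and 0.66 FPKM in M (log2 fold change 3.51, adjusted p = 0.000104). Slc22a8 and Slc22a19 were thus apart in all libraries. Slc22a29 had 41.9, 34.6 and 35.2 FPKM in D21-s, against 5.11, 3.17 and 4.57 FPKM in M (log2 fold change 2.87, adjusted p = 5.95e-06), and Slc22a26 and Slc22a27 were also higher, at log2 fold changes of 1.82 and 1.10. Slc22a28 and Slc22a30, next to Slc22a29 in the run, were lower. Slc22a30 had 4.75, 4.99 and 3.94 FPKM in D21-s, against 45.5, 44.9 and 42 FPKM in M (log2 fold change -3.03, adjusted p = 8.8e-07), and Slc22a28 had 16.4, 16.2 and 18.4 FPKM in D21-s, against 69.3, 60.1 and 61.7 FPKM in M (log2 fold change -1.84, adjusted p = 3.62e-05).

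FPKM is a level per transcript length, so levels of different genes can be set side by side. The Ugt1a genes on chromosome 1 (88055388 to 88220002) share all but their first exon, so the split of reads among them rests on that exon and on the estimate. Beside Ugt1a2, Ugt1a1, the gene of the bilirubin-conjugating enzyme, had 13.6, 15.8 and 14.3 FPKM in D21-s, against 3.13, 1.19 and 2.32 FPKM in M (log2 fold change 2.32, adjusted p = 0.000185). Ugt1a6b had 0.59, 0.79 and 1.11 FPKM in D21-s, against 4.17, 4.36 and 5.32 FPKM in M (log2 fold change -1.62, adjusted p = 0.00104). Ugt1a7c, the most abundant form in M, had 128, 162 and 146 FPKM in D21-s, against 174, 134 and 145 FPKM in M and was not called (log2 fold change -0.05, adjusted p = 0.793). The order of the forms thus differed between the groups: Ugt1a2 led in D21-s and Ugt1a7c in M. In the Ugt2b run on chromosome 5, Ugt2b38 had 86.3, 103 and 122 FPKM in D21-s, against 569.7, 507 and 561 FPKM in M (log2 fold change -2.40, adjusted p = 6.69e-05), and Ugt2b37 had 1.34, 1.58 and 1.6 FPKM in D21-s, against 21.6, 24.8 and 26.2 FPKM in M (log2 fold change -3.33, adjusted p = 1.22e-06). Ugt2b34 was higher (log2 fold change 1.21, adjusted p = 0.0466), a call lost without M replicate 2, M replicate 3, D21-s replicate 1, D21-s replicate 2 or D21-s replicate 3 (adjusted p 0.0609 to 0.142). Ugt2b34 was also not called with the covariate (0.626), without a filter (0.12), with the 6 libraries only (0.102), with the replicate block (0.0642), with a pseudocount of 0.1 (0.0514) or with quantile normalization (0.0507).

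In the Ces1 run on chromosome 8, Ces1f had 13.9, 16.8 and 12.1 FPKM in D21-s, against 245, 322 and 265 FPKM in M (log2 fold change -4.19, adjusted p = 1.23e-07), and Ces1g had 1.43, 2.74 and 1.91 FPKM in D21-s, against 14.4, 24.6 and 11.5 FPKM in M (log2 fold change -2.51, adjusted p = 0.000643). Both encode carboxylesterases, which hydrolyse ester drugs and lipids, and neither overlapped between groups. Their neighbour Ces1d had 288, 419 and 196 FPKM in D21-s, against 189, 148 and 133 FPKM in M (log2 fold change 0.89, adjusted p = 0.0496), and lost its call without M replicate 2, M replicate 3, D21-s replicate 1 or D21-s replicate 2 (adjusted p 0.0904 to 0.152). It was also lost with the other cell type score as a covariate (0.239), with the 6 libraries only (0.105), without a filter (0.126), with quantile normalization (0.0677), with a pseudocount of 0.1 (0.0524) and after rescaling without mitochondrial genes (0.0508), all adjusted p of Ces1d. In the Akr1c run on chromosome 13, Akr1c18, the gene of the 20-alpha-hydroxysteroid dehydrogenase that inactivates progesterone, had 5.55, 1.39 and 2.86 FPKM in D21-s, against 0.04, 0 and 0.08 FPKM in M (log2 fold change 1.92, adjusted p = 0.00641). Akr1c14, the gene of a 3-alpha-hydroxysteroid dehydrogenase, was lower, with 3.65, 1.99 and 1.54 FPKM in D21-s, against 10.5, 13.5 and 11.6 FPKM in M (log2 fold change -1.97, adjusted p = 0.00151). The abundant Akr1c21 had 792, 840.4 and 873 FPKM in D21-s, against 658, 705 and 758 FPKM in M, a small difference just past the threshold (log2 fold change 0.24, adjusted p = 0.04994). In the Hsd3b run on chromosome 3, Hsd3b2 had 33.7, 40.2 and 43.8 FPKM in D21-s, against 65.4, 69.3 and 94.4 FPKM in M (log2 fold change -0.93, adjusted p = 0.00334). Hsd3b4 had 275, 289.9 and 230.1 FPKM in D21-s, against 23.3, 74.7 and 90 FPKM in M (log2 fold change 2.27, adjusted p = 0.0134, 0.0562 without D21-s replicate 2 and 0.127 with the other cell type score as a covariate). Both belong to the 3-beta-hydroxysteroid dehydrogenase family, and the M libraries of Hsd3b4 differed widely.

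**Figure D3:**
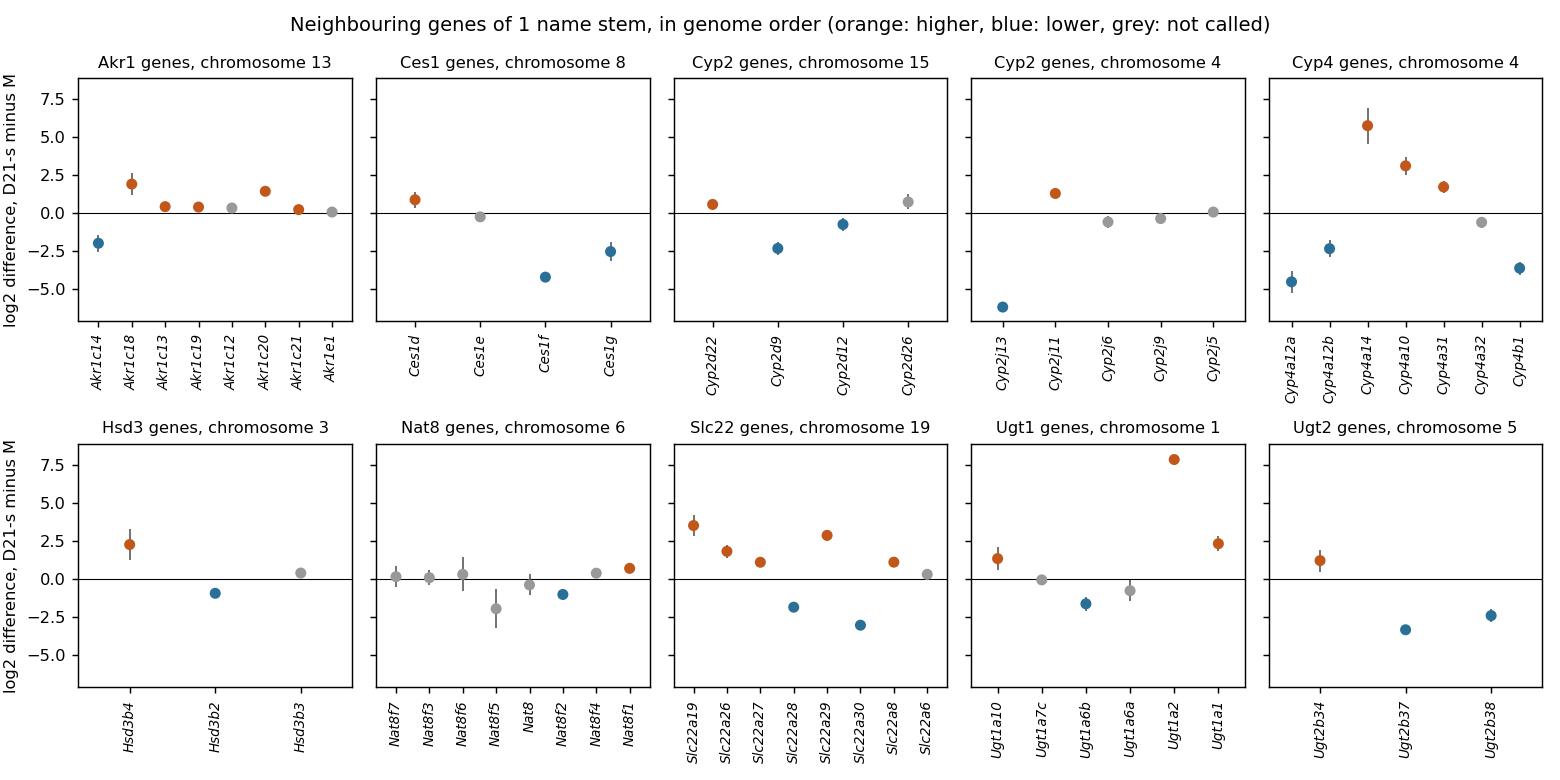
Log2 fold change (D21-s minus M) with its 95% interval for each tested gene of the 10 runs of neighbouring family members, in their order along the chromosome. Genes called higher and genes called lower stand in the same run, as with Cyp4a14 at 5.75 and Cyp4a12a at -4.50.

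In the following lists of related genes, the counts stand beside 4.38% higher, 5.05% lower and a median of -0.09 over all tested genes. These shares are not matched to the levels of the lists. Among tested genes at 50 to 200 FPKM, 12.3% were higher and 6.01% lower. Among conjugation and detoxification genes, 13 of 33 tested members of the glutathione list were higher and 1 lower (median log2 fold change 0.20). Gsta2, an alpha-class glutathione transferase gene, had 939, 939 and 1053 FPKM in D21-s, against 282, 210.3 and 328 FPKM in M (log2 fold change 1.85, adjusted p = 5.49e-05). Gsta4, whose enzyme detoxifies lipid peroxidation products, had 195, 188 and 157 FPKM in D21-s, against 38, 44.8 and 37.6 FPKM in M (log2 fold change 2.14, adjusted p = 2.65e-06). Gsta1 and Gsta3 were higher as well, at log2 fold changes of 1.82 and 1.10, and Gsta1 and Gsta2 are near-identical copies. All 4 had no overlap between the groups. Over the fits that leave out 1 library, 12 to 14 members were higher and 0 to 3 lower. Among P450 genes of families 2 to 4, 5 of 27 were higher and 10 lower (median -0.41), with 6 lower without M replicate 2 or D21-s replicate 2. Glucuronosyltransferase genes split into 5 higher and 4 lower of 13 (median -0.05), with 3 higher without M replicate 2, M replicate 3, D21-s replicate 1 or D21-s replicate 2. Carboxylesterase genes split into 2 higher and 3 lower of 9 (median -0.23), with 1 higher without M replicate 3, D21-s replicate 1 or D21-s replicate 2. Of 10 sulfation genes 2 were higher and 1 lower (median 0.04), with 2 lower without M replicate 1. Papss2, which encodes an enzyme that activates sulfate for sulfation, had 211, 217 and 229.5 FPKM in D21-s, against 50.7, 70.1 and 62.8 FPKM in M (log2 fold change 1.83, adjusted p = 1.03e-05), and Slc13a1, the sulfate uptake gene, was also higher (log2 fold change 0.71, adjusted p = 0.000756). Papss1, the relative of Papss2, was lower, a call lost with the other cell type score as a covariate (adjusted p = 0.242).

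Amino acid breakdown genes were more often higher than lower. Among one-carbon, betaine and sulfur amino acid genes 12 of 22 were higher and 1 lower (median log2 fold change 0.35), and 9 to 11 were higher and 0 or 1 lower over the fits that leave out 1 library. Bhmt, which uses betaine to remethylate homocysteine, had 13.7, 15.2 and 14.8 FPKM in D21-s, against 0.58, 0.37 and 0.61 FPKM in M (log2 fold change 3.36, adjusted p = 1.88e-07), and its relative Bhmt2 had 30.4, 32 and 32.1 FPKM in D21-s, against 8.83, 14.1 and 11.1 FPKM in M (log2 fold change 1.42, adjusted p = 0.000414). Dmgdh, whose enzyme oxidizes the dimethylglycine that the Bhmt reaction leaves, had 51.9, 55.1 and 43.5 FPKM in D21-s, against 8.33, 15.7 and 12.5 FPKM in M (log2 fold change 1.99, adjusted p = 0.000217). All 3 genes were separated between the groups. Cth, the gene of cystathionine gamma-lyase, which makes cysteine, was higher at a log2 fold change of 1.06 (adjusted p = 2.28e-05).

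In the tryptophan to NAD pathway 6 of 15 members were higher and 1 lower (median log2 fold change 0.25). Kynu, the kynureninase gene, had 33.6, 36.2 and 31.1 FPKM in D21-s, against 1.84, 3.29 and 2.99 FPKM in M (log2 fold change 3.24, adjusted p = 1.77e-06). Kmo, whose enzyme makes the 3-hydroxykynurenine that kynureninase cleaves, had 67.1, 71.4 and 72.3 FPKM in D21-s, against 41.5, 39.4 and 38.1 FPKM in M (log2 fold change 0.81, adjusted p = 0.000105). Kyat1, the gene of an aminotransferase that diverts kynurenine to kynurenic acid, had 13.6, 11.8 and 13.6 FPKM in D21-s, against 34, 35 and 28.5 FPKM in M (log2 fold change -1.26, adjusted p = 0.000291). The genes along the route to NAD that are named here were thus higher and the aminotransferase gene lower, with no overlap. In tyrosine breakdown 4 of 9 members were higher and none lower (median 0.52). Beside Hpd these were Hgd, Fah and Gstz1, which encode the enzymes that follow it, at log2 fold changes of 0.57, 0.67 and 0.52. All 4 calls held under every alternative tried. Among arginine, ornithine and polyamine genes 3 of 15 were higher and 1 lower (median -0.05), with 2 lower without D21-s replicate 3. Oat, the ornithine aminotransferase gene, had 215, 223 and 223 FPKM in D21-s, against 132, 108 and 122 FPKM in M (log2 fold change 0.87, adjusted p = 0.000107). Odc1, whose enzyme opens polyamine synthesis from ornithine, had 263, 241 and 313 FPKM in D21-s, against 402, 429 and 441 FPKM in M (log2 fold change -0.64, adjusted p = 0.00295). The enzymes that compete for ornithine thus differed in opposite directions at the level of their messages.

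Fatty acid genes were called in both directions. Among acyl-CoA thioesterases and synthetases 10 of 23 were higher and 3 lower (median log2 fold change 0.23), with 6 higher without M replicate 2, D21-s replicate 2 or D21-s replicate 3, and 1 lower without any library other than D21-s replicate 1. With the mean level of the other cell type markers as a covariate, 2 were higher and 1 lower. Acot3, a peroxisomal thioesterase gene, had 45.7, 53.2 and 37.2 FPKM in D21-s, against 8.29, 8.04 and 7.66 FPKM in M (log2 fold change 2.35, adjusted p = 5.89e-06). Acsl1, the gene of a long-chain acyl-CoA synthetase, had 152, 160.5 and 161 FPKM in D21-s, against 71.2, 70 and 87.6 FPKM in M (log2 fold change 1.05, adjusted p = 0.00044). Neither overlapped between the groups. Of 27 peroxisomal lipid genes 9 were higher and 5 lower (median 0.12), with 5 higher without D21-s replicate 2. Acaa1b, a peroxisomal thiolase gene of beta-oxidation, had 464, 548 and 365 FPKM in D21-s, against 96.6, 153 and 98.7 FPKM in M (log2 fold change 1.99, adjusted p = 0.000222). Hacl1, whose enzyme shortens 2-hydroxy fatty acids, had 123, 126 and 139.5 FPKM in D21-s, against 33.8, 21.9 and 32.7 FPKM in M (log2 fold change 2.12, adjusted p = 0.000102). Agps, which acts in ether lipid synthesis rather than in oxidation, had 15.7, 14.2 and 13.1 FPKM in D21-s, against 39.1, 45 and 31 FPKM in M (log2 fold change -1.35, adjusted p = 0.000246). The peroxisomal genes named here for oxidation thus rose and the ether lipid gene fell. These are only some of the 9 higher and 5 lower members, so this split does not describe the list. Cd36, the fatty acid uptake receptor gene, had 6.58, 5.27 and 3.31 FPKM in D21-s, against 43.9, 52.8 and 34.2 FPKM in M (log2 fold change -2.90, adjusted p = 0.000246), whereas Fabp1, the gene of the liver-type fatty acid-binding protein, had 9.9, 17.9 and 8.88 FPKM in D21-s, against 1.07, 2.36 and 1.86 FPKM in M (log2 fold change 2.23, adjusted p = 0.000696). Acsm2, an abundant relative of Acsm3 that activates medium-chain acids, had 1013, 1072 and 1341 FPKM in D21-s, against 2097, 2110.0 and 1965 FPKM in M (log2 fold change -0.86, adjusted p = 0.00131).

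Transporter genes were called in both directions. Of 36 organic anion, cation and urate transporter genes 15 were higher and 6 lower (median log2 fold change 0.31), with 12 to 18 higher and 6 lower over the fits that leave out 1 library. Beside the chromosome 19 genes, Slc22a13, the gene of a carrier of urate and nicotinate, had 14, 12.4 and 11 FPKM in D21-s, against 0.35, 0.84 and 0.31 FPKM in M (log2 fold change 3.18, adjusted p = 5.95e-06). Of 25 amino acid and peptide transporter genes 8 were higher and 1, Slc7a13, lower (median 0.26), with 2 lower without M replicate 1 or D21-s replicate 1. Slc6a18, the gene of an apical carrier of neutral amino acids, had 156, 150.4 and 160.3 FPKM in D21-s, against 22.1, 33.4 and 26 FPKM in M (log2 fold change 2.49, adjusted p = 7.45e-06). Slc38a3, the gene of a basolateral glutamine carrier, had 11.8, 17.6 and 14.2 FPKM in D21-s, against 1.45, 1.39 and 1.43 FPKM in M (log2 fold change 2.66, adjusted p = 2.95e-06). Slc7a12, of the same family as Slc7a13, had 13.3, 5.53 and 6.71 FPKM in D21-s, against 0.23, 0.27 and 0.24 FPKM in M (log2 fold change 2.85, adjusted p = 0.0015), the reverse of its relative. Of 33 genes for sugar, carboxylate, phosphate, ion and water transport 8 were higher and 2 lower (median 0.15). The counts were 13 and 1 without M replicate 1 and 7 and 0 without M replicate 2, M replicate 3, D21-s replicate 2 or D21-s replicate 3. Slc5a10, a mannose and fructose carrier gene, had 57.6, 64.2 and 70.8 FPKM in D21-s, against 12.6, 28.7 and 20.4 FPKM in M (log2 fold change 1.66, adjusted p = 0.00248). Slc13a2, the citrate uptake gene, had 36.4, 42.5 and 35.5 FPKM in D21-s, against 13.3, 14.6 and 10.9 FPKM in M (log2 fold change 1.49, adjusted p = 5.49e-05). Aqp1, the water channel gene of proximal tubule and thin limb, had 264, 298 and 258 FPKM in D21-s, against 95.6, 139.5 and 96.2 FPKM in M (log2 fold change 1.32, adjusted p = 0.000391). These genes were higher in each D21-s library than in any M library, whereas the glucose carrier gene Slc5a2 had 497, 508 and 656 FPKM in D21-s, against 901, 568 and 745 FPKM in M, and did not pass (log2 fold change -0.40, adjusted p = 0.172).

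**Figure D4:**
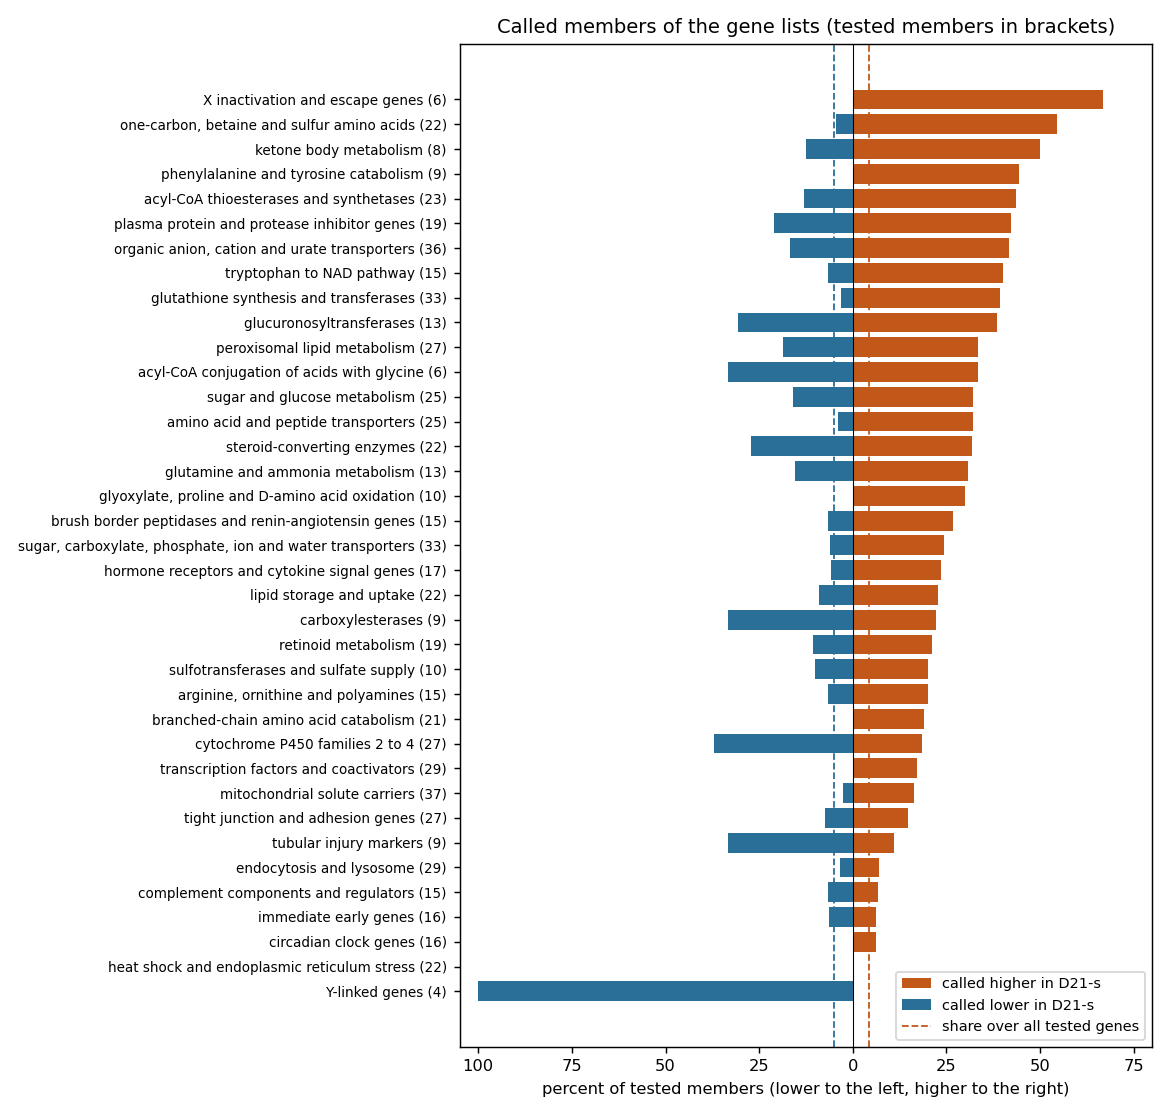
Share of the tested members of each gene list called higher (right of 0) and lower (left of 0) in D21-s, in percent, with the number tested in brackets and dashed lines for the 4.38% and 5.05% over all tested genes. Lists differ in size, so a share of a short list rests on few genes. The shares over all tested genes are not matched to the levels of a list.

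Other groups varied less uniformly. Of 19 plasma protein and protease inhibitor genes 8 were higher and 4 lower (median log2 fold change 0.42), with 5 higher without D21-s replicate 2. Serpina1f had 16.1, 9.13 and 8.78 FPKM in D21-s, against 0.1, 0.29 and 0.03 FPKM in M (log2 fold change 3.39, adjusted p = 5.62e-05). Serpina1a, 1 of several near-identical alpha-1-antitrypsin genes, had 6.6, 11.9 and 5.75 FPKM in D21-s, against 0.35, 0 and 0.35 FPKM in M (log2 fold change 2.84, adjusted p = 0.000222). Alb, the albumin gene, had 9.57, 12.7 and 8.63 FPKM in D21-s, against 3.72, 2.19 and 3.66 FPKM in M (log2 fold change 1.44, adjusted p = 0.00102). Serpina1a and Alb are known best from liver. The libraries of Serpina1f, Serpina1a and Alb were apart between the groups at low levels. Selenop, whose product carries selenium, had 416, 419 and 451 FPKM in D21-s, against 1509, 1009.8 and 1094 FPKM in M (log2 fold change -1.47, adjusted p = 0.000183). Gpx3, the gene of a selenoenzyme that the kidney secretes and among the 8 most abundant genes, had 14433, 16468 and 18089 FPKM in D21-s, against 21718, 13449 and 16711 FPKM in M (log2 fold change -0.06, 95% interval -0.44 to 0.32, adjusted p = 0.848). Its libraries overlapped, and its log2 fold change was 0.03 with median-ratio scaling. Of 22 tested steroid-converting enzyme genes 7 were higher and 6 lower (median 0.23), with 4 higher and 3 lower without D21-s replicate 2, and 2 higher and 4 lower with the other cell type score as a covariate. Of 19 retinoid genes 4 were higher and 2 lower (median 0.19), with 1 lower without any library other than D21-s replicate 1.

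Among 17 hormone receptor and cytokine signal genes 4 were higher and 1 lower (median log2 fold change 0.09), with 2 higher without M replicate 3 and none lower without M replicate 2 or D21-s replicate 2. Pth1r, the parathyroid hormone receptor gene, had 317, 332 and 322 FPKM in D21-s, against 226, 249.9 and 234 FPKM in M (log2 fold change 0.45, adjusted p = 0.000953), a small difference with no overlap. Esr1, the gene of estrogen receptor alpha, stood at 1.01, 1.02 and 0.71 FPKM in D21-s and 0.65, 0.74 and 0.51 FPKM in M, below the level needed for testing. Of 9 tested tubular injury markers 1 was higher and 3, Krt8, Krt18 and Mdk, lower (median -0.50), with 1 lower without M replicate 3 or D21-s replicate 2 and none lower with the other cell type score as a covariate. Spp1, the gene of osteopontin, had 1314, 1227 and 1460 FPKM in D21-s, against 667, 614 and 678 FPKM in M, with no overlap (log2 fold change 1.03, adjusted p = 9.24e-05). The injury genes Havcr1 and Lcn2 were below that level: Havcr1 was at 0.04, 0.07 and 0.08 FPKM in D21-s and 0.33, 0.55 and 0.35 FPKM in M. Of 22 heat shock and endoplasmic reticulum stress genes none was called by limma, and none had an unadjusted p under 0.05, and 1 was lower without M replicate 1.

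Some genes fall outside the rule for named genes and were chosen after their values were seen, as were Akr1c21, Cyp2j5, Gm47283, Slc22a6, Slc5a2, Ugt1a7c and Umod above and below. Abcb1b and Abcb1a, which encode the drug efflux pump P-glycoprotein, had 12.1, 14 and 14.6 and 8.12, 10.1 and 6.39 FPKM in D21-s, against 2.72, 1.46 and 1.35 and 1.64, 1.53 and 1.1 FPKM in M (log2 fold changes 2.39 and 1.91, adjusted p = 4.09e-05 and 0.000106). Dio1, the gene of the deiodinase that activates thyroid hormone, had 99.8, 102 and 105 FPKM in D21-s, against 22.1, 18.1 and 23.5 FPKM in M (log2 fold change 2.22, adjusted p = 6.32e-06). Cbr1, a carbonyl reductase gene, had 168, 141 and 166 FPKM in D21-s, against 33, 35.9 and 40.8 FPKM in M (log2 fold change 2.09, adjusted p = 4.85e-06). These genes were thus higher in each D21-s library than in each M library. Acy3, the gene of an aminoacylase that acts on mercapturic acids, had 294, 277 and 292 FPKM in D21-s, against 722, 882 and 651 FPKM in M (log2 fold change -1.37, adjusted p = 0.000102). Timd2, the gene of a ferritin receptor, had 3.4, 3.09 and 3.99 FPKM in D21-s, against 37.6, 25.8 and 28 FPKM in M (log2 fold change -2.80, adjusted p = 1.17e-05). Hsd17b11, a 17-beta-hydroxysteroid dehydrogenase gene, had 57.1, 56.4 and 56.2 FPKM in D21-s, against 109, 139.5 and 112 FPKM in M (log2 fold change -1.07, adjusted p = 0.000102). The last 3 were lower in every D21-s library, and the calls of these 7 genes held in each alternative in which the gene was tested. So did the calls of Dpys, Abcc4 and Slc10a2, chosen in the same way. Of the others so chosen, Srd5a1 lost its call without D21-s replicate 2 (adjusted p = 0.0512). Slc22a7 lost its call in several alternatives, such as without M replicate 3 (adjusted p = 0.106) and with the other cell type score as a covariate (0.0977).

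Among the markers of other kidney cell types, only those of the tubule and collecting duct lists were called lower in D21-s. Of 52 tested members 18 were lower in D21-s and none higher, with a median log2 fold change of -0.90, and 2 of the 67 markers in the table were at 0 in all 6 libraries. Lower genes numbered 6 of 8 for the thick ascending limb, 5 of 7 for the distal convoluted tubule, 4 of 7 for principal cells and 3 of 7 for intercalated cells. For podocytes, endothelium, stroma, immune cells and the red cell, fat and adrenal list the count was 0 in each direction by limma, with 0, 1, 0, 1 and 0 members at an unadjusted p under 0.05. The medians of podocyte and endothelial markers were still -0.94 and -0.83, against -0.83 to -1.03 for the 4 lists with calls. D21-s replicate 3 lay far below its group: podocyte sums were 264, 175.6 and 43.9 FPKM in D21-s, against 268.7, 292.6 and 205.3 in M. Endothelial sums were 168, 169.9 and 46 FPKM in D21-s, against 180.9, 316.7 and 163.1 in M. Uncalled lists may thus be lower too. Slc12a3, the sodium chloride carrier gene of the distal convoluted tubule, had 355, 167 and 204 FPKM in D21-s, against 457, 569.8 and 619 FPKM in M (log2 fold change -1.24, adjusted p = 0.0238), a call lost without M replicate 2, M replicate 3, D21-s replicate 2 or D21-s replicate 3 (adjusted p 0.0746 to 0.0871), without a filter (0.0716) or with the other cell type score as a covariate (0.536). Umod, the thick limb gene of uromodulin, had 893, 692 and 503 FPKM in D21-s, against 876, 1481 and 1228 FPKM in M and did not pass (log2 fold change -0.79, adjusted p = 0.079). The D21-s and M libraries of Umod overlapped, those of Slc12a3 did not. The score includes Slc12a3 itself, so the loss of its call with the covariate was nearly fixed in advance. Without M replicate 1 the counts of the 4 nephron lists were 7, 6, 7 and 5, and without D21-s replicate 1 they were 7, 6, 5 and 4. Without M replicate 2 they were 0, 1, 0 and 0, without M replicate 3 they were 0, 1, 1 and 0, without D21-s replicate 2 they were all 0, and without D21-s replicate 3 they were 0, 1, 2 and 0.

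Of 15 proximal tubule markers 7 were higher and 1, Acsm2, lower in D21-s (median log2 fold change 0.31), with 3 or 4 higher without M replicate 2, M replicate 3, D21-s replicate 2 or D21-s replicate 3, and 2 higher with the other cell type score as a covariate. Prom1, the gene of the protein used to retain the cells, had 90.4, 76.8 and 129 FPKM in D21-s, against 42, 39.4 and 54.6 FPKM in M (log2 fold change 1.08, adjusted p = 0.00641). Prom1 was no longer called with the mean level of the 52 other cell type markers as a covariate (adjusted p = 0.235). That score was 0.105, -0.317 and -0.788 in D21-s, against 0.307, 0.746 and 0.463 in M, in centred log2 units. With it in the fit, 201 of the 566 higher genes and 113 of the 653 lower genes were still called in the same direction. Of those with a difference of 2-fold or more, 104 of 136 and 61 of 121 were. The higher and lower counts became 9 and 4 for the organic anion, cation and urate transporters, 5 and 3 for peroxisomal lipid genes, 4 and 3 for plasma protein genes, and 2 and 4 for glucuronosyltransferases. They became 0 and 3 for carboxylesterases, 3 and 0 for retinoid genes, 2 and 1 for hormone receptor genes, 2 and 0 for sulfation genes and 6 and 0 for the sugar, carboxylate, phosphate, ion and water transporters. They became 10 and 0 for the glutathione list and 9 and 0 for the one-carbon list. The 4 nephron lists had 0 lower, but their tested members are part of the score, so this was nearly fixed in advance. The score itself did not overlap between the groups, so this fit cannot tell the cell mixture apart from sex. A call lost with the score may also come from a wider error of the estimate. The part of the cell mixture in these results was not tested. Of the 185 called genes named by the rule, 100 were called in the same direction under every alternative in which they were tested, among them Ugt1a2, Cyp4a14, Prlr, Hpd, Hao2, Cyp2j13, Slc7a13, Slco1a1, Cyp4b1, Ces1f and Acsm3.

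**Figure D5:**
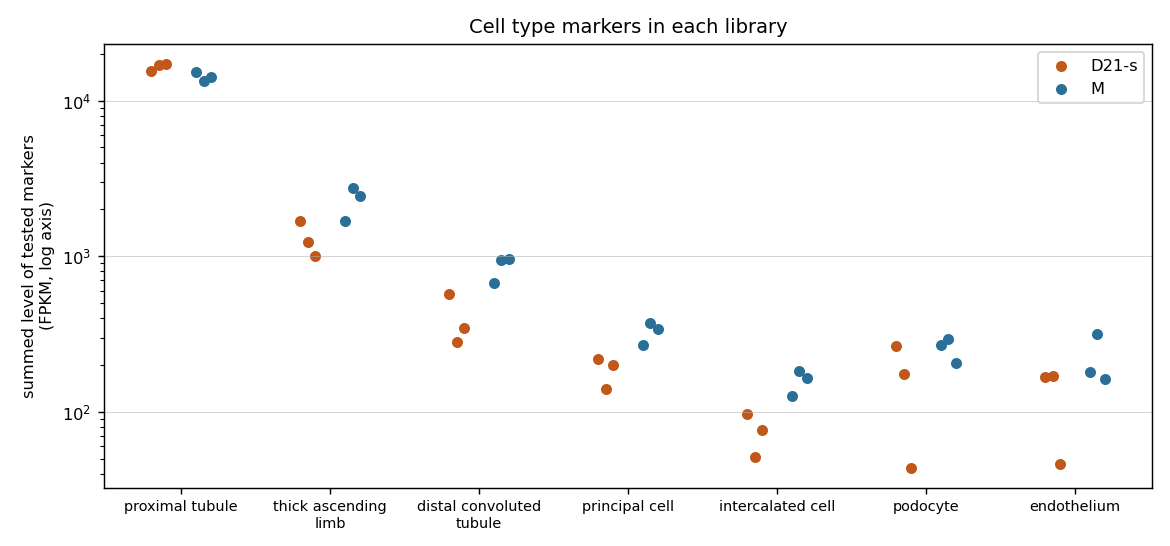
Summed FPKM of the tested markers of each cell type, on a log axis, in each D21-s library (left of each pair, replicates in order) and each M library. The proximal tubule sum was 15597 to 17151 in D21-s, against 13454 to 15204 in M, and the distal convoluted tubule sum 280.1 to 568.6 in D21-s, against 674.4 to 955.7 in M.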

How the data were processed

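Messenger RNA of the cells of mouse kidney cortex that bound the prominin-1 antibody was measured by RNA sequencing with a kit that keeps strand. The deposited values are FPKM per gene and library with 2 decimals, per the file headers, 1 column per library. STAR 2.6.0c and RSEM were used, per the submitters' processing notes; build, annotation and the version of RSEM are not given in the sources. RSEM divides reads that fit several genes by estimate, so levels of near-identical copies are uncertain. The table holds 52405 entries, and 3 further value columns that match no sample were not used. GENCODE M21 (build GRCm38) gave positions for 52147 IDs, and 71 symbols stand on more than 1 line. Read depth was estimated from the spacing of low FPKM values: 61.2% to 64.6% of low values lay on whole-read steps in the 9 libraries, so reads were not recovered and no count test was run.

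Genes reaching 1 FPKM in 3 or more of the 6 libraries entered the test on log2(FPKM + 1) with limma 3.58.1 (trend, R 4.3.3) in a fit of the 9 libraries with 1 mean per group. The contrast was D21-s minus M, two-sided, with Benjamini-Hochberg adjustment over all 12918 genes. The pseudocount of 1 understates the differences of low genes. Lists are described by counts and medians only. The named genes were the called, non-overlapping genes with the largest differences or highest levels, those under 0.5 FPKM in all libraries of the lower group, up to 4 called members per list, called members of runs of neighbours, the 8 highest genes and some fixed genes, 192 in all. Members, lists and the rule were chosen with earlier results of these data known. The fit was tested on simulated data. Python 3.11.15 was used for tables and figures. Alternatives were a pseudocount of 0.1, no filter, a filter of 5 FPKM, median-ratio, quantile and non-mitochondrial scaling, the 6 libraries only, a replicate block, a marker score as covariate and leaving out each library. Ovariectomized females were not compared here. Some genes covered by the rule and some motifs searched are not reported here.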

Additional observations from a re-analysis of the deposited data

How the results depend on the processing

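Higher genes numbered 566 and lower genes 653. With median-ratio scaling 851 were higher, with the other cell type score as a covariate 221 were higher and 123 lower, without a filter 361 were lower, and with the 6 libraries only 359 were lower. Leaving out each library in turn gave 351 to 665 higher and 232 to 999 lower genes. The causes were not tested, beyond fewer libraries in the last 2 kinds of fit and more genes tested without a filter. With the replicate block 534 were higher and 612 lower. Deviations of same-numbered D21-s and M libraries correlated at -0.137, 0.16 and 0.292, so the numbers were not taken to pair these groups. Same-numbered D21-s and ovariectomized libraries correlated at 0.377, 0.196 and 0.306, against at most 0.058 for other numbers, a hint from the data and not the design, and a call lost under the block is not read as a weaker effect. Of the 185 called named genes, 100 were called under every alternative in which they were tested, and none reversed. The sign of uncalled genes turned for Gm28438 (0.199 with quantile normalization), Gm29216 (-0.127 with the covariate, -0.044 to 0.243 leaving out each library, negative without D21-s replicate 2), Gpx3 (0.032 with median-ratio scaling, -0.228 to 0.117 leaving out each library, positive without M replicate 1 or D21-s replicate 1) and Slc34a1 (-0.068 with the covariate), all log2 fold changes. With 3 libraries per group the median 95% interval of a log2 fold change reached 0.28 to either side.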
